A study of Mus musculus with 6 samples.

Results

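The genes described here are 10 late neutrophil genes: Ltf, Camp, Ngp, Lcn2, Mmp8, Mmp9, S100a8, S100a9, Cd177 and Chil3. They were chosen by name, for their known products in maturing neutrophils, from the 20097 genes listed in the deposited files. Earlier results of these data were known when they were chosen, and all 10 were listed. The RNA came from mouse bone marrow cells selected for c-Kit, the stem cell factor receptor of immature blood cells. The labels give 3 libraries as WT and 3 as Runx1 KO, with Runx1 a transcription factor gene needed for blood formation. They do not state age, sex, strain, the number of animals behind a library, or the allele, timing and cell type of the Runx1 disruption. The question was how the level of each late neutrophil gene differed between the libraries with these labels.

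Neutrophils fill their granules in an order. Promyelocytes make the primary (azurophil) granule proteases and myeloperoxidase, myelocytes and metamyelocytes then make the secondary (specific) granule proteins, and band cells make the tertiary (gelatinase) granule proteins. The transcription factors C/EBPα and C/EBPε are known to drive the steps into and through this program, and c-Kit is lost from the cell surface as it proceeds. S100a8 and S100a9 form calprotectin, which is stored in the cytosol of mature neutrophils, and monocytes make it too.

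The stretches before the RefSeq gene starts are shown for the members that carry a C/EBP-type motif there. These genes lie on several chromosomes, and all but Mmp8 were called lower in the libraries labelled Runx1 KO. Camp, S100a8, Cd177 and Chil3, which carry no such motif there, were called lower too. RefSeq promoters on GRCm38.p6 matched 9 of the 10 members, and Mmp9 had no entry. In the 250 bases before the start, searched on both strands, TTGCNNAA (C/EBP-type) was found in 5 of the 9, against 9.56% of the 32851 promoters in the same table. The stretches are written 5′ to 3′ on the strand of the gene, and capitals mark every match to one of the 4 motifs searched. For Ltf (chr9:111019042-111019270, plus strand) and Ngp (chr9:110419558-110419746, plus strand) the stretch ends where the annotated exon begins, and for Mmp8 (chr9:7558179-7558428, plus strand) and S100a9 (chr3:90695722-90695971, minus strand) it holds all 250 bases.
Ltf: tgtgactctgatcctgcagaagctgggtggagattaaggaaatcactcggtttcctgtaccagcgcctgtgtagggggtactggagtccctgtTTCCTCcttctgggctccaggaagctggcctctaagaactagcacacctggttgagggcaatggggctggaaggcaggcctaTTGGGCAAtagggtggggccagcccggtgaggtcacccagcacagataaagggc
Ngp: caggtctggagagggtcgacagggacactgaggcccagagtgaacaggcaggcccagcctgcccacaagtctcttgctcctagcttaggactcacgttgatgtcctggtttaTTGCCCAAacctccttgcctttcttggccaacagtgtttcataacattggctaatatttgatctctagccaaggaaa
Mmp8: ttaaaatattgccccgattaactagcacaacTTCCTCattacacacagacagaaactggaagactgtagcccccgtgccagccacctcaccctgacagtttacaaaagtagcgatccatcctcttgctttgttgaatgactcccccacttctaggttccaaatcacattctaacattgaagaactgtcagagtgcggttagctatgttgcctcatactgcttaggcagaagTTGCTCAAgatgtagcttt
S100a9: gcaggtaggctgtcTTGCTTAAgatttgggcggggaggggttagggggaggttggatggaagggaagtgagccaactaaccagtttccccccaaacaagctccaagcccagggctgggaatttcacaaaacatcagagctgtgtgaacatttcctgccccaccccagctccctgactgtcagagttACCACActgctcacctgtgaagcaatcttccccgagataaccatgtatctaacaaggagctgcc
The site of Lcn2 lies inside an annotated exon of one of its transcripts, so that 30 bases around it are shown (chr2:32387937-32387966, minus strand).
Lcn2: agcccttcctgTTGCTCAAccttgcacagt

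The C/EBP-type matches ended 68 bases before the RefSeq start in Ltf, 12 in Mmp8, 209 in Lcn2 and 229 in S100a9. For Mmp8 this start, just after base 7558428, lies before the GENCODE gene start at 7558456. Ngp held 2 of them, the one printed, which ended 131 bases before the start, and another that ended 4 bases before it and lies within the annotated exon. GAGGAA (PU.1-type) was found in 5 of the 9 members, Ltf, Lcn2, Mmp8, S100a8 and Cd177, against 23.3% of all promoters in the table. TGTGGT (RUNX-type) was found in 1 of the 9, S100a9, against 14.0%. The GATA-type letters TGATAA were found in 1 of the 9, Chil3, against 7.94%. None of these letters was found before the start of Camp. A match describes the letters in this window and shows no binding.

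All 6 libraries were of like depth, with 23297526 to 26793380 recovered reads, and all 10 members were tested. Each value is a read count scaled by the size factor of its library (normalised reads), and 3 reads corresponded to 2.88 to 3.14 normalised reads. These reads carry no molecular identifiers and are not independent molecules, so that limit covers counting error only. Runx1 itself did not fall in the libraries labelled Runx1 KO. It stood at 3031, 2799 and 3497 normalised reads in WT replicates 1 to 3 and at 6648, 6720 and 5830 in Runx1 KO replicates 1 to 3, a log2 change of 1.04 (SE 0.10, limma adjusted p = 0.00163). Totals over a gene do not show which exons the reads came from, so the genotype is used below as a label. Kit ranged from 7979 to 8471 normalised reads under the WT label and from 11507 to 13685 under the Runx1 KO label. The gene behind the selection was thus well detected in all 6 libraries and was higher in those labelled Runx1 KO (log2 change 0.60, SE 0.07, adjusted p = 0.00346). Over all 15410 tested genes, 3370 (21.9%) passed an adjusted p of 0.05, of which 48.4% were higher in the libraries labelled Runx1 KO, or 63.5% of 3755 when scaled to library totals. Along the first principal component (69.2% of the variance), the WT libraries lay from -65.0 to -39.8 and the Runx1 KO libraries from 22.8 to 64.5, with Runx1 KO replicate 1 nearest to WT. The labels do not say that replicates came from separate animals, so p-values measure only the spread between these libraries, which may be technical.

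Of the 10 late neutrophil genes, 8 were lower in the libraries labelled Runx1 KO at an adjusted p of 0.05 and none was higher, where 11.3% of all tested genes were called lower. The 8 were Ltf, Camp, Ngp, Lcn2, S100a8, S100a9, Cd177 and Chil3. In the same 8 genes every library labelled Runx1 KO was below every library labelled WT, which held for 21.9% of all tested genes. The median log2 change of the 10 was -2.04, beside -0.0042 over all tested genes. edgeR and DESeq2, run on recovered reads, likewise called 8 lower and 0 higher. Without Runx1 KO replicate 2, 5 of the 10 were called, since Ltf (adjusted p = 0.0544), Lcn2 (0.0505) and Chil3 (0.0857) no longer passed, and 1367 genes in all were called in place of 3370.

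**Figure D1:**
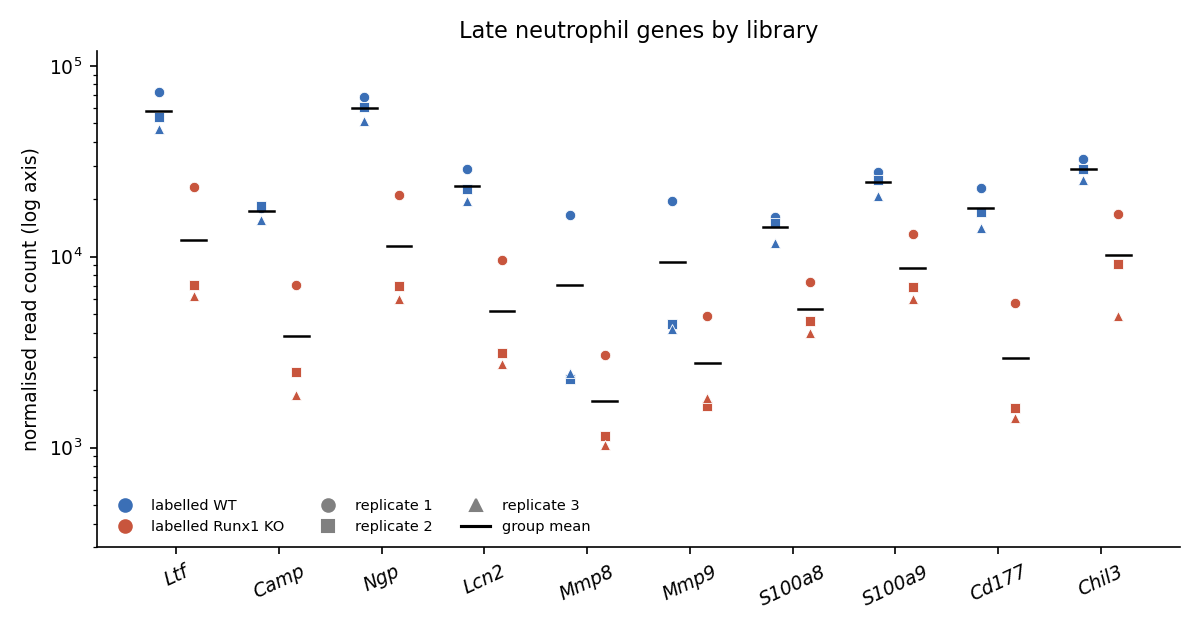
Normalised read count (log axis) of the 10 late neutrophil genes in each library, with blue for WT and red for Runx1 KO labels, marker shapes for replicates 1 to 3 and black bars for group means. The groups are apart in 8 genes, and in Mmp8 and Mmp9 the WT replicate 1 circle lies far above the other WT markers, at 16536 and 19490.

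Among the secondary granule genes, Ltf encodes lactoferrin, an iron-binding protein of specific granules (chr9:111019271-111042767, plus strand, GRCm38). It gave 72796, 54263 and 46436 normalised reads in WT replicates 1 to 3 and 23247, 7105 and 6219 in Runx1 KO replicates 1 to 3. The groups did not overlap, and Runx1 KO replicate 1 lay well above the other two. The log2 change was -2.49 (SE 0.48, limma adjusted p = 0.0133), and the WT mean of 57832 ± 13538 was 4.74 times the Runx1 KO mean of 12190 ± 9585 (SD, n = 3 each).

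Ngp, neutrophilic granule protein, is a cystatin-related protein of the same granules (chr9:110419747-110423012, plus strand). It gave 68759, 61198 and 51420 normalised reads under the WT label and 21163, 6999 and 5984 under the Runx1 KO label. Its order of libraries was that of Ltf. The log2 change was -2.64 (SE 0.44, adjusted p = 0.00863).

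Camp encodes cathelicidin, the precursor of the antimicrobial peptide CRAMP (chr9:109847379-109849617, minus strand). Levels were 17982, 18546 and 15586 in WT replicates 1 to 3 and 7088, 2488 and 1888 in Runx1 KO replicates 1 to 3. It was the only member in which WT replicate 2, not replicate 1, was the highest WT library. The log2 change was -2.43 (SE 0.44, adjusted p = 0.0113).

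Camp, Ngp and Ltf lie in this order within 1195.4 kb of chromosome 9, with 570.1 kb between Camp and Ngp and 596.3 kb between Ngp and Ltf. Camp and Ngp stood in a similar proportion throughout: for each 100 of Ngp per kb of exon there were 42.2, 48.9 and 48.9 of Camp in the WT libraries and 54.0, 57.3 and 50.9 in the Runx1 KO libraries. The groups did not overlap in this proportion, though its values moved far less than the levels.

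Lcn2 encodes lipocalin 2 (NGAL), which binds bacterial siderophores (chr2:32384633-32388252, minus strand). It gave 28657, 22595 and 19519 normalised reads in the WT libraries and 9640, 3127 and 2749 in the Runx1 KO libraries. Replicate 1 was again the highest library under each label. The log2 change was -2.42 (SE 0.45, adjusted p = 0.0121).

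Chil3 encodes Ym1, a chitinase-like protein that neutrophil precursors and some macrophages make (chr3:106147554-106167564, minus strand). Levels were 32559, 28815 and 25156 under the WT label and 16729, 9118 and 4865 under the Runx1 KO label. The groups did not overlap, but the Runx1 KO libraries were spread over more than the gap between the groups. The log2 change was -1.66 (SE 0.40, adjusted p = 0.0271), and the call was lost without WT replicate 1 (0.069), WT replicate 2 (0.075), WT replicate 3 (0.0592) or Runx1 KO replicate 2 (0.0857). Its near-identical relative Chil4 was not analysed here, so the count of Chil3 is uncertain to the extent that reads were shared.

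The surface gene Cd177 encodes a glycosylphosphatidylinositol-anchored protein stored in specific granules and shown on the neutrophil membrane (chr7:24743983-24760311, minus strand). It gave 23018, 17202 and 14087 normalised reads in the WT libraries and 5750, 1613 and 1430 in the Runx1 KO libraries. The lowest WT library was above the highest Runx1 KO library. This was the largest fall among the 10, with a log2 change of -2.90 (SE 0.51, adjusted p = 0.00981) and a WT mean 6.18 times the Runx1 KO mean. Relative to Ltf, there were 38.4, 38.5 and 36.9 of Cd177 per 100 of Ltf per kb in the WT libraries and 30.0, 27.6 and 27.9 in the Runx1 KO libraries. The groups did not overlap in this proportion, which was lower under the Runx1 KO label.

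The calprotectin genes S100a8 and S100a9 are neighbours on chromosome 3 (chr3:90668978-90670035, plus strand, and chr3:90692632-90695721, minus strand), 22.6 kb apart. S100a8 gave 16091, 15072 and 11786 normalised reads in the WT libraries and 7349, 4626 and 3979 in the Runx1 KO libraries. S100a9 gave 27651, 25117 and 20913 in the WT libraries and 13124, 6915 and 5996 in the Runx1 KO libraries. Neither gene's groups overlapped. Their log2 changes were -1.47 (SE 0.23, adjusted p = 0.00699) and -1.58 (SE 0.28, adjusted p = 0.0102), and S100a8 had the smallest standard error of the 10. S100a9 per 100 of S100a8, both per kb, was 228, 222 and 236 in the WT libraries and 237, 199 and 200 in the Runx1 KO libraries. This proportion overlapped between the groups. Set against Ltf, the pair made up more under the Runx1 KO label: S100a8 per 100 of Ltf per kb was 110, 138 and 126 in the WT libraries and 157, 324 and 318 in the Runx1 KO libraries, without overlap.

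**Figure D2:**
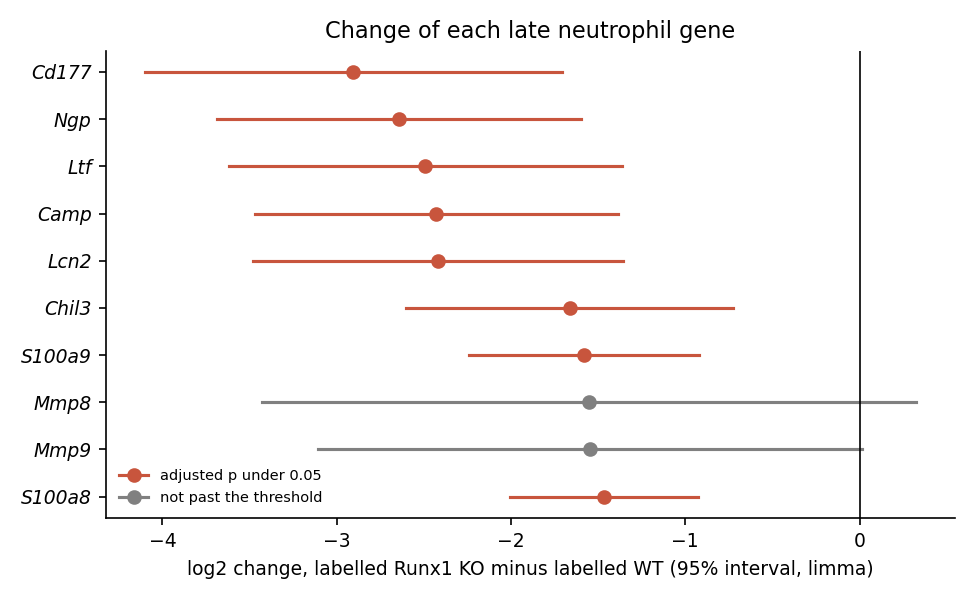
Log2 change of each late neutrophil gene, libraries labelled Runx1 KO minus those labelled WT, from limma, with 95% intervals and n = 3 libraries a group. Intervals of the 8 genes in red lie below 0, and those of Mmp8 and Mmp9 in grey reach above 0.

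The matrix metalloproteinase genes did not pass the main test, which had no term for the replicate number. A fit with such a term is given with the other settings below. Mmp8 encodes neutrophil collagenase, a protease kept mainly in specific granules (chr9:7558456-7568485, plus strand). It gave 16536, 2274 and 2454 normalised reads in WT replicates 1 to 3 and 3052, 1155 and 1036 in Runx1 KO replicates 1 to 3. WT replicate 1 was 6.99 times the mean of the other WT libraries, and Runx1 KO replicate 1 exceeded WT replicates 2 and 3. The log2 difference was -1.55 (SE 0.80, 95% interval -3.43 to 0.32, adjusted p = 0.20), and without WT replicate 1 it was -0.62 (adjusted p = 0.375).

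Mmp9 encodes gelatinase B, the enzyme for which the tertiary, or gelatinase, granules are named (chr2:164940780-164955850, plus strand). Levels were 19490, 4465 and 4174 in the WT libraries and 4864, 1652 and 1808 in the Runx1 KO libraries. The groups overlapped through Runx1 KO replicate 1, and WT replicate 1 was 4.51 times the mean of the other WT libraries. The log2 difference was -1.55 (SE 0.66, 95% interval -3.11 to 0.01, adjusted p = 0.135), and without WT replicate 1 it was -0.82 (adjusted p = 0.249).

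Both intervals include 0 and also values as far below 0 as the changes of the other members. Set against Ltf, both genes stood at unlike levels among the WT libraries. Mmp8 per 100 of Ltf per kb was 32.3, 5.96 and 7.52 in WT replicates 1 to 3 and 18.7, 23.1 and 23.7 in Runx1 KO replicates 1 to 3. Mmp9 per 100 of Ltf per kb was 26.1, 8.02 and 8.76 in the WT libraries and 20.4, 22.7 and 28.3 in the Runx1 KO libraries. WT replicates 2 and 3 were thus the low ones for both genes, and WT replicate 1 lay with the Runx1 KO libraries or above them. These proportions were chosen after the values were seen and have no test. The proportions given above for Camp, Cd177, S100a8 and S100a9 were not planned either and have no test.

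**Figure D3:**
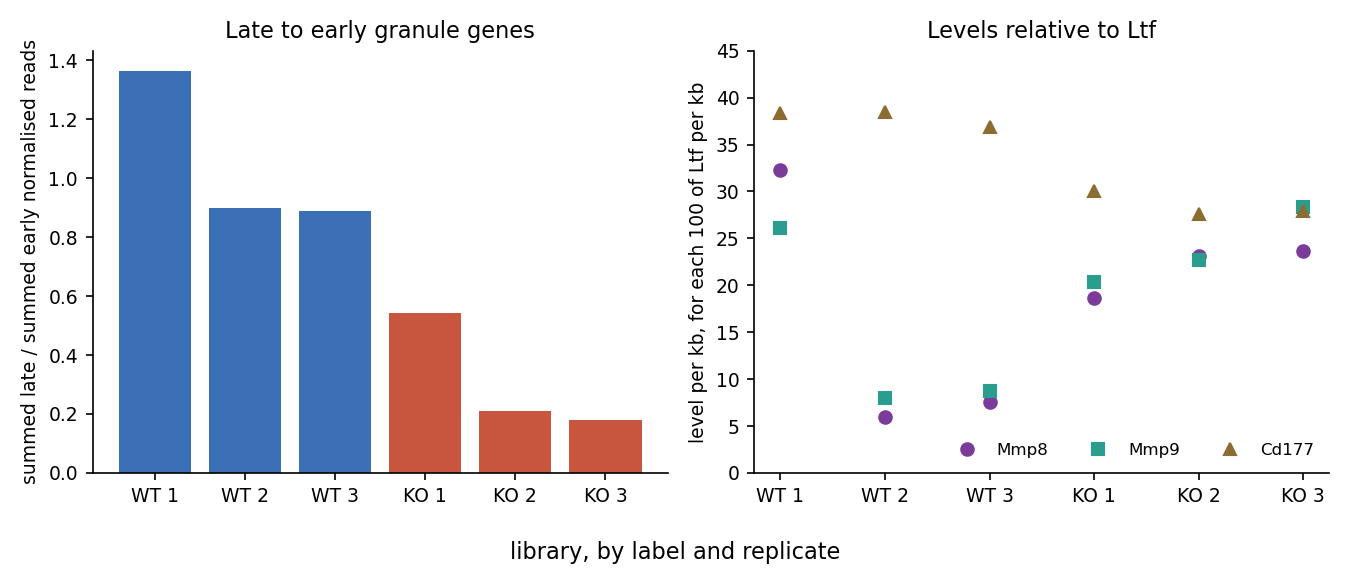
Left, summed normalised reads of the 10 late genes divided by those of 12 early granule genes in each library (bars, from 0); right, levels of Mmp8, Mmp9 and Cd177 per kb for each 100 of Ltf per kb in each library (points). The bars run from 1.36 to 0.887 for WT and from 0.543 to 0.180 for Runx1 KO, and the Mmp8 and Mmp9 points are lowest in WT replicates 2 and 3.

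Across the members the highest library under each label was mostly the same. Runx1 KO replicate 1 was the highest Runx1 KO library for all 10, as for 41.3% of all tested genes, at 1.71 to 3.78 times the mean of the other two. WT replicate 1 was the highest WT library for 9 of the 10, as for 36.7% of all tested genes. In the 8 members whose groups did not overlap it was 1.05 to 1.47 times the mean of the other WT libraries. Without Runx1 KO replicate 1 the median log2 change of the 10 was -2.55, and without WT replicate 1 it was -1.92.

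By mean level per kb of exon, Ngp (49475) and S100a9 (47051) led in the WT libraries, followed by Camp (22918), S100a8 (20629), Chil3 (17673), Ltf (16763), Lcn2 (8994), Cd177 (6374), Mmp8 (2923) and Mmp9 (2649). Neighbours in this order overlapped over their libraries except S100a9 with Camp and Ltf with Lcn2. In the Runx1 KO libraries S100a9 led at 16625, then Ngp (9314), S100a8 (7663), Chil3 (6273), Camp (5041), Ltf (3533), Lcn2 (1972), Cd177 (1032), Mmp9 (784) and Mmp8 (721), and every pair of neighbours overlapped. Exon length counts all annotated exons of a gene once, so a gene with rarely used exons appears lower than its main transcript would. Together the 10 genes took 1.22%, 0.955% and 0.845% of normalised reads in WT replicates 1 to 3 and 0.460%, 0.181% and 0.148% in Runx1 KO replicates 1 to 3, without overlap.

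Genes of the preceding stage had a median change nearer to 0. Of 12 early granule and promyelocyte genes, 6 were lower and none higher, where 11.3% of all tested genes were lower. Their median log2 change was -0.30, and without Runx1 KO replicate 2 or replicate 3, 4 were lower. Fcnb, encoding ficolin B, had the largest change of this list, -2.05 on the log2 scale (SE 0.16, adjusted p = 0.00102), which is beyond the changes of S100a8, S100a9, Chil3, Mmp8 and Mmp9. Serpinb1a, an inhibitor of the neutrophil proteases, had a log2 change of -0.79 (adjusted p = 0.0072), the serine protease gene Prss57 one of -0.75 (adjusted p = 0.0102) and Ms4a3, a marker of granulocyte and monocyte progenitors, one of -0.65 (adjusted p = 0.0107). Elane, Prtn3, Mpo and Ctsg are named here after their values were seen. The protease genes Elane (-0.35, adjusted p = 0.0242) and Prtn3 (-0.41, adjusted p = 0.0193) were lower without overlap. These calls were lost in 3 and 2 of the fits with a library left out, respectively. Mpo, encoding myeloperoxidase, ranged from 70662 to 81448 normalised reads in the WT libraries and from 66191 to 69534 in the Runx1 KO libraries. It did not pass (log2 difference -0.14, adjusted p = 0.233). The cathepsin G gene Ctsg stood at -0.05 (adjusted p = 0.629), a difference whose sign turned under library totals.

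Summed late over summed early normalised reads gave a ratio of 1.36, 0.899 and 0.887 in WT replicates 1 to 3 and of 0.543, 0.211 and 0.180 in Runx1 KO replicates 1 to 3. The means were 1.05 ± 0.272 and 0.311 ± 0.201 (SD, n = 3 each). The lowest WT library was above the highest Runx1 KO library. In bulk RNA, fewer cells at the late stage and less RNA of these genes in each such cell cannot be told apart.

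**Figure D4:**
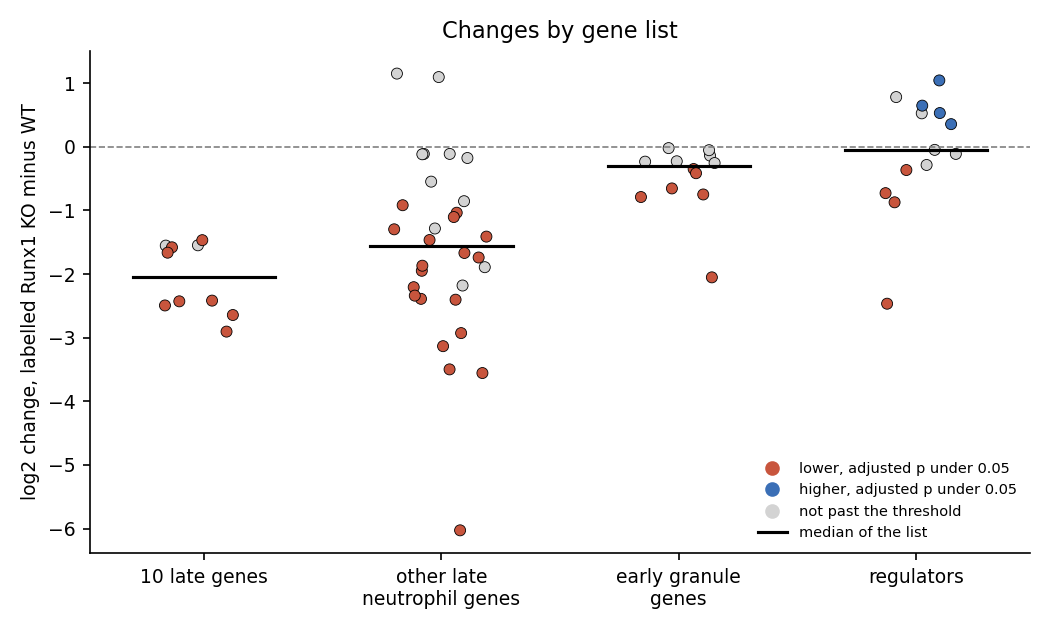
Log2 change of each gene in 4 lists, libraries labelled Runx1 KO minus those labelled WT, with one point a gene, black bars for list medians and colour for the limma call. The medians are -2.04 for the 10 late genes, -1.57 for the other late neutrophil genes, -0.30 for the early granule genes and -0.05 for the regulators, of which 4 are higher and 4 lower.

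A wider list of 31 other late neutrophil genes held 30 that were listed. Of these, 19 were lower and none higher, where 11.3% of all tested genes were lower. Their median log2 change was -1.57, and 11 did not pass. The difference was below 0 in 28 of the 30 and above 0 in Stfa2 and Stfa3. Without WT replicate 1 it was below 0 in 23 of the 30, with a median of -1.28 and 15 lower calls. Without Runx1 KO replicate 2 the lower calls numbered 10 and without Runx1 KO replicate 3 they numbered 12. WT replicate 1 was the highest WT library in 30 of the 30. Itgb2l, an integrin beta chain-like gene of mouse neutrophils, gave 7845, 5158 and 4256 normalised reads in the WT libraries and 219, 53.5 and 50.7 in the Runx1 KO libraries. Its log2 change of -6.03 (SE 0.55, adjusted p = 0.00153) exceeded that of any of the 10 members. Olfm4, encoding an olfactomedin in the specific granules of a subset of neutrophils, had a log2 change of -3.56 (adjusted p = 0.00597). Ly6g, the surface antigen used to identify mouse neutrophils, gave 2250, 876 and 935 in the WT libraries and 340, 96.1 and 81.6 in the Runx1 KO libraries. The groups of Ly6g did not overlap (log2 change -3.13, SE 0.59, adjusted p = 0.0126), and without Runx1 KO replicate 2 the call was lost (adjusted p = 0.053). The stefin gene Stfa1 was called at -3.50 (adjusted p = 0.0273) on 66.3, 33.3 and 10.6 normalised reads against 2.09, 0 and 4.97, and it has near-identical copies that could share its reads. That call was lost without WT replicate 1 (0.0702), WT replicate 2 (0.0817) or Runx1 KO replicate 2 (0.0794). The other stefin genes on the list did not pass, with log2 differences of 1.10 for Stfa2 (adjusted p = 0.46), 1.15 for Stfa3 (0.382) and -0.18 for Stfa2l1 (0.906).

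Other lower calls on this list, named here after their values were seen, included Itgam, encoding CD11b (-1.95, adjusted p = 0.00769), the haptoglobin gene Hp (-1.41, adjusted p = 0.00128) and the annexin A1 gene Anxa1 (-1.46, adjusted p = 0.00407). Among those that did not pass, Retnlg, a resistin-like gene of mature neutrophils, gave 10381, 1938 and 2001 normalised reads in the WT libraries and 4291, 1655 and 1818 in the Runx1 KO libraries. The chemokine receptor gene Cxcr2 gave 5761, 1690 and 1332 against 1501, 765 and 782. Both showed a high WT replicate 1 and overlapping groups, as Mmp8 and Mmp9 did, with log2 differences of -0.55 (adjusted p = 0.597) and -1.28 (adjusted p = 0.135). The sign of the Retnlg difference turned without WT replicate 1.

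Of 13 regulators of the granule program and related factors, 4 were lower and 4 higher, where 21.9% of all tested genes were called. Without WT replicate 2, WT replicate 3 or Runx1 KO replicate 2 the calls numbered 5 in all. Klf4 and Irf8 are also on the list of monocyte genes below, and Csf3r is also among the other late neutrophil genes. Cebpe, encoding C/EBPε, gave 2595, 3598 and 2757 normalised reads in the WT libraries and 1633, 1666 and 1544 in the Runx1 KO libraries. Its groups did not overlap (log2 change -0.87, SE 0.12, adjusted p = 0.00488). Klf4, a factor of monocytes as well as neutrophils, gave 4778, 2180 and 2199 against 900, 353 and 426 (-2.47, adjusted p = 0.00914). Lmo4 stood at -0.73 (adjusted p = 0.009) and Spi1, encoding PU.1, at -0.36 (adjusted p = 0.0403), a call lost with edgeR (0.0518) and under library totals (0.0746). The higher ones were Runx1, Runx3 (0.65, adjusted p = 0.00929), Runx2 (0.53, adjusted p = 0.0428) and Cebpd (0.36, adjusted p = 0.0371). With 1 library left out, the call of Spi1 held only without Runx1 KO replicate 1, that of Runx2 only without Runx1 KO replicate 3 and that of Cebpd only without WT replicate 1, and the other adjusted p-values of these 3 genes reached 0.14, 0.136 and 0.1. Cebpa, encoding C/EBPα, ranged from 2518 to 2686 normalised reads in the WT libraries and from 2317 to 2598 in the Runx1 KO libraries (-0.05, adjusted p = 0.642, with the sign turned under library totals). Cebpb (0.78, adjusted p = 0.0809), Gfi1 (0.53, adjusted p = 0.0543), Irf8 (-0.28, adjusted p = 0.343) and the G-CSF receptor gene Csf3r (-0.11, adjusted p = 0.751) did not pass, though DESeq2 called Cebpb (0.048) and Gfi1 (0.00775), and Gfi1 also passed under library totals (0.0365).

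Markers of several other cell types differed with the label as well. Beside the counts below, 11.3% of all tested genes were lower and 21.9% were called in either direction. Of 14 monocyte and macrophage genes, 6 were lower and 1 higher, and the change was below 0 in 13. Their summed normalised reads ran from 61878 to 84473 in the WT libraries and from 54505 to 76190 in the Runx1 KO libraries. The higher one, F13a1, weighs on these sums and is named after its values were seen. It ranged from 13438 to 18269 in the WT libraries and from 23942 to 28908 in the Runx1 KO libraries (log2 change 0.75, adjusted p = 0.00953). Of 10 eosinophil genes, 4 were lower and 1 higher, with sums of 15343 to 23389 and 8258 to 12913. Of 9 basophil and mast cell genes tested, 6 were lower and 1 higher, with sums of 14914 to 18789 and 13869 to 16720 over the 10 listed, of which Tpsb2 was at 0 in 1 library. The sums of this list hide unlike members: Prss34, a basophil protease gene named after its values were seen, gave 4096, 2069 and 2532 normalised reads in the WT libraries and 5.23, 3.96 and 1.99 in the Runx1 KO libraries (adjusted p = 0.000111). Named in the same way, Gata2 was higher (log2 change 0.82, adjusted p = 0.0128), a call lost without Runx1 KO replicate 2 (0.0561). Cpa3 (0.40, adjusted p = 0.194) and Hdc (0.31, adjusted p = 0.095) stood above 0 but did not pass. Of 10 B-lineage genes, 6 were lower, with sums of 21886 to 47773 and 11974 to 13990, and WT replicate 1 was the highest WT library in all 10. Of 10 erythroid genes 5 were lower and none higher, with sums of 25050 to 38433 and 17646 to 25512. This list was also mixed, with 8 changes below 0. Klf1 (0.74, adjusted p = 0.0816) and Epor (0.68, adjusted p = 0.107), named after their values were seen, stood above 0 but did not pass. DESeq2 called 2 genes of the list higher. Of 10 T and NK genes 2 were lower, which is near the share of all tested genes. Of 12 stem and progenitor genes, 7 were higher and none lower, with sums of 32995 to 40353 and 39958 to 46413. The median log2 changes were -3.20 for the B-lineage, -2.48 for the basophil and mast cell, -1.27 for the erythroid, -1.25 for the T and NK, -0.98 for the eosinophil, -0.45 for the monocyte and macrophage, and 0.67 for the stem and progenitor genes, so those of the B-lineage and of the basophil and mast cell lists lay beyond the -2.04 of the late neutrophil genes. Without Runx1 KO replicate 2 the lower calls numbered 4 for the monocyte list, 1 for the eosinophil list and 1 for the B-lineage list, and the higher calls of the stem and progenitor list numbered 4. Without Runx1 KO replicate 1 the lower calls numbered 9 each for the monocyte, B-lineage and T and NK lists. The eosinophil list had 2 without WT replicate 2, the B-lineage list had 2 without Runx1 KO replicate 3 and 4 without WT replicate 3, the monocyte list had 4 without WT replicate 3 or Runx1 KO replicate 3, and the T and NK list had 1 without any single WT library or Runx1 KO replicate 2. The part of these other cells in the levels of the late neutrophil genes was not tested.

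The 6 genes whose levels followed the mean profile of the 10 members most closely were Ipcef1, AI839979, Gm49654, Ifnlr1, Serpinb10 and Alox5, taken from 12259 other tested genes with a mean of at least 50 normalised reads. Likeness was the root mean square difference of centred log2 values over the 6 libraries, which was 0.11 for Ipcef1 and 0.16 for Alox5. Their log2 changes lay between -2.18 and -1.96, which the likeness itself requires. Alox5 encodes 5-lipoxygenase, which starts leukotriene synthesis, and gave 3746, 2767 and 2280 normalised reads in the WT libraries and 1090, 483 and 479 in the Runx1 KO libraries. Among the members themselves Lcn2 lay nearest to the mean profile, at 0.22, and Mmp8 farthest, at 0.73, followed by Mmp9 at 0.55.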

How the data were processed

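Poly-A RNA of c-Kit-positive mouse bone marrow cells was sequenced on a HiSeq2500 in one pool of 6 libraries, 3 with the label WT and 3 with Runx1 KO, per the labels. The submitters' processing notes name HISAT2, HTSeq 0.9.1 and the builds GRCm38 and mm10; whether counting used the strand is not given in the sources used here. The deposited signal values are read counts that the authors scaled by library size factors: in each file 100% of values were whole multiples of the smallest one, within a tolerance of 0.001, and these multiples are the recovered reads. The size factors equalled those DESeq2 gave from the recovered reads. The lowest total of a listed gene was 10 reads, so weaker genes were not analysed here.

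The members and gene lists were chosen with earlier results of these data known. limma 3.58.1 (lmFit, then eBayes with a mean trend, in R 4.3.3) was fitted to log2(value + 1) of all genes that passed filterByExpr of edgeR (minimum count 10, minimum total 15), with no term but the group. Tests were two-sided, and p-values were adjusted by Benjamini-Hochberg over the 15410 tested genes. Fold changes are on this log2 scale, which understates the change of weak genes. An exact permutation test of one gene is not given, since 3 against 3 libraries cannot reach a p under 0.1. Beside the members, Runx1, Kit and Ly6g were named, as were all regulators and the 4 called genes of each list with the largest change. The 6 genes nearest to the mean profile of the members were named too. Further genes were named after their values were seen. Positions and exon lengths come from GENCODE release M21 on GRCm38, and promoters from RefSeq on GRCm38.p6. Alternatives were a replicate block, other pseudocounts, filters and scalings, edgeR 4.0.16 with TMM and DESeq2 1.42.0 on recovered reads, and each library left out. The scripts were tested on simulated data.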

Additional observations from a re-analysis of the deposited data

How the results depend on the processing

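The 8 settings that kept all libraries and used no replicate block (pseudocounts of 0.5 and 5, no filter, a mean of at least 50, TMM scaling, library totals, edgeR and DESeq2) left all 80 values of the 10 late neutrophil genes in their direction and on their side of the threshold. Leaving out each library in turn gave 54 such values, and 6 that no longer passed. The range of calls over those 6 fits was 1367 to 3597 for all genes (3370 with every library), 5 to 8 for the late neutrophil genes, 10 to 19 for the other late genes, 4 to 7 for the early granule genes and 5 to 8 for the regulators. The median change of the late neutrophil genes ranged from -2.55 to -1.70. Without its largest member, Ngp, the mean share of reads in the WT libraries was 0.774% in place of 1.007%.

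The labels do not say whether the replicate numbers pair the libraries. Deviations from the group means correlated at 0.287, 0.1289 and -0.0104 for the numbers 1 to 3. The value for number 1 was the highest of all pairs, while WT replicate 2 correlated best with Runx1 KO replicate 3 (0.2346). With 3 libraries a group these correlations cannot decide whether the libraries are paired. With the replicate block 3843 genes were called, with all 10 late neutrophil genes (Mmp8 at an adjusted p of 0.0123 and Mmp9 at 0.00205), 23 other late genes, 8 early granule genes and 10 regulators. Among the genes named, the sign turned only in genes that had not passed: under library totals Cebpa stood at 0.035 and Ctsg at 0.03. With a library left out, Cebpa ranged from -0.078 to 0.0046, Ctsg from -0.094 to 0.012, Csf3r from -0.30 to 0.15, Retnlg from -0.98 to 0.25 and Stfa2l1 from -0.83 to 0.78. The cause was not tested. For 44 of the other genes named, the 6 fits that each left out 1 library gave 214 values with the same direction and call. In 40 values a call was lost, in 4 one was gained and in 6 the sign turned. Each value is 1 gene in 1 fit. Depth was no limit for the 10 members, whose lowest value was 1036 normalised reads, and the spread over 3 libraries was.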

Other observations

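Relatives of the members in the same gene families, chosen after their values were seen, changed in part. Among all tested genes 11.3% were lower and 21.9% were called in either direction. Of the chitinase family, Chil1 gave 7968, 5463 and 4459 normalised reads in the WT libraries against 1249, 274 and 293 in the Runx1 KO libraries (log2 change -3.64, limma adjusted p = 0.00698). Chit1 gave 196, 383 and 315 against 30.3, 24.8 and 22.9 (-3.42, adjusted p = 0.00105). Both were lower. They were 2 of the 3 such genes tested, and Chil5 did not pass (-1.85, adjusted p = 0.0581; DESeq2 called it at 0.00482). Of 6 other S100 genes tested, 2 were lower and none higher, and S100a6 did not pass (-1.40, adjusted p = 0.104). The lower ones were S100a11 (-0.66, adjusted p = 0.0271) and S100a4 (-1.91, adjusted p = 0.0179). S100a4 rested on 15, 11 and 15 recovered reads in the WT libraries against 5, 2 and 2 in the Runx1 KO libraries. Each of these 2 calls was lost in 4 of the fits with a library left out. Of 10 other matrix metalloproteinase genes tested, 2 were lower and 2 higher. Mmp25, a membrane-bound enzyme of neutrophils, was lower (-2.40, adjusted p = 0.024). Its adjusted p was 0.0886 without Runx1 KO replicate 2 and 0.08 without replicate 3. The other lower call, of Mmp17, was lost in 3 of the fits with a library left out. The higher calls were of Mmp15, lost in all 6 such fits, and of Mmp2, lost in 2.

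Genes beside the members mostly did not pass the test. Between Camp and Ltf on chromosome 9, 17 other genes were tested and 3 were lower (17.6%, beside 11.3% of all tested genes), Ccdc12, Cdc25a and Map4, with log2 changes from -0.50 to -0.30, and the median of the 17 was -0.08. Within 500 kb of S100a8 and S100a9, 17 other genes were tested, of which 1 was lower and 1 higher. The lower one was S100a4, the weakly detected gene named above.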
